A study of Mus musculus with 16 samples.

Results

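The comparison described here set 4N cells (G2/M) against 3N cells (S phase) of a mouse alveolar rhabdomyosarcoma (aRMS) culture after knockdown of Pax3:Foxo1a with a siRNA against eYFP. The members were the arrays that the labels give as eYFP siRNA with 4N or 3N DNA content, which were 5 of the 16 arrays of the series. Knockdown 4N cells had 3 arrays, 1 from each of experiments 1, 2 and 3. Knockdown 3N cells had 2 arrays, from experiments 1 and 2, and the agreement of these 2 experiments was examined for every gene. The culture came from a tumor of the conditional mouse model with the genotype Myf6Cre, Pax3:Foxo1a and p53, which both groups share. In this model Cre is driven by Myf6, a gene of maturing muscle, and eYFP is made from the same transcript as the fusion, so that 1 siRNA sequence against eYFP lowers the fusion transcript. Both groups were grown in DMEM with 10% FBS, received 10 nM siYFP with 0.2% lipofectamine2000, and were parted by sorting on Hoechst33342 staining. Cells given control siRNA were sorted into the same fractions and stand beside them below. The methods call the experiments of the 2N and 4N samples independent. The sources used here do not say whether each was a separate culture. The p-values thus measure the spread between arrays, estimated within the groups of all 16 arrays of the series. A gate on DNA content parts neither early from late S phase nor G2 from mitosis.

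As background, a cell in S phase copies its DNA with a helicase of the MCM proteins, polymerases, a sliding clamp and a supply of deoxynucleotides, and most of these genes are switched on by E2F factors as S phase begins. Genes for spindle, kinetochore and mitotic kinases are held down by the DREAM repressor early in the cycle and are switched on later by B-Myb and FoxM1, through a promoter element named CHR (cell cycle genes homology region) that often lies near a CCAAT box. Alveolar rhabdomyosarcoma is a muscle-like childhood tumor driven by PAX fusion factors, and the study asked whether the fusion acts in G2/M.

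Each value below is the log2 of a normalized signal of 1 probe on an Illumina MouseRef-8 v2 array, and a log2 difference of 1 is a 2-fold difference. Between 12721 and 13135 of 25697 probes were detected on the 5 arrays, and any 2 of the 5 correlated at 0.9893 to 0.9938 over the 9306 genes tested. The number of arrays limits the precision: the median standard error (SE) of a 4N minus 3N difference was 0.16, and the median 95% interval reached 0.33 to either side. Foxo1, whose probe has no stated position relative to the fusion breakpoint, was lower in knockdown than in control cells by a log2 difference of -0.70 in 4N cells (SE 0.14, limma adjusted p = 0.0024) and of -0.89 in 3N cells (SE 0.17, limma adjusted p = 0.00283). Between knockdown 4N and knockdown 3N cells Foxo1 had a difference of 0.24 (95% interval -0.09 to 0.57, limma adjusted p = 0.681). Of 7 muscle markers with a probe, 6 were detected on all 5 arrays, and Myod1, a defining factor of the muscle lineage, was detected on none. Of markers of other cells, 0 of 8 endothelial, 2 of 11 immune, 1 of 8 erythroid and 3 of 11 fibroblast and adipocyte genes were detected on all 5 arrays, with Ptprc, Pecam1 and Hba-a1 on none. Of 11 epithelial and neural markers, 5 were detected on all 5, among them Krt8, with 13.64 in 4N and 13.54 in 3N cells, and Krt18, with 11.82 in 4N and 11.86 in 3N cells.

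Knockdown 4N cells had more transcript of the mitotic kinase genes Aurka and Plk1, of 5 of 24 spindle genes and of the anaphase activator Cdc20 than knockdown 3N cells. They had less of all 6 subunits of the replicative helicase, of 8 of 27 replication fork genes, and of Ccne2 and E2f1 of the G1/S transition. Of 9306 genes tested, 31 were higher and 60 were lower in knockdown 4N cells (limma over all 16 arrays, adjusted p under 0.05), which is 0.333% and 0.645% of the genes and 0.978% in all. The changes lay between log2 0.48 and 1.26 for the genes that rose and between -0.47 and -1.27 for those that fell, while the median over all genes was 0.01. With the experiment as a block the calls numbered 83 higher and 108 lower (0.892% and 1.16%), and all 91 of the first fit were among them. The calls depended on the 3N arrays. Without knockdown 3N replicate 2 no gene passed, in any list described below, with a lowest limma adjusted p of 0.0524, although 615 genes had an unadjusted p under 0.05 and all 91 kept their sign. Without knockdown 3N replicate 1, 9 rose and 10 fell. Without 4N replicate 1, 2 or 3 the calls were 12, 17 and 11 higher and 28, 39 and 32 lower. Aurka, Plk1 and Mcm7 were not called in any fit without a 4N array, while Cdc20 was called in each.

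All 31 genes that rose did so in experiment 1 and in experiment 2, and all 60 that fell were lower in 4N cells in both. Over all genes 65.1% had the same sign in both experiments, 34.3% higher and 30.7% lower. For every called gene the 3 arrays of 4N cells also lay on one side of the 2 arrays of 3N cells, which was the case for 14.2% of all genes above and 14.2% below. The third 4N array, which has no 3N partner, lay on the same side of the 3N mean for all 31 and all 60. The passing of the test favours such genes, so these counts describe the calls and add no support. Across all genes the differences of experiments 1 and 2 had a Pearson r of 0.42 and a Spearman correlation of 0.41, where genes are not independent replicates. Of the called genes 27 had a further detected probe, and 44 of these 45 probes had the sign of the call, 13 of them past the threshold themselves.

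**Figure D1:**
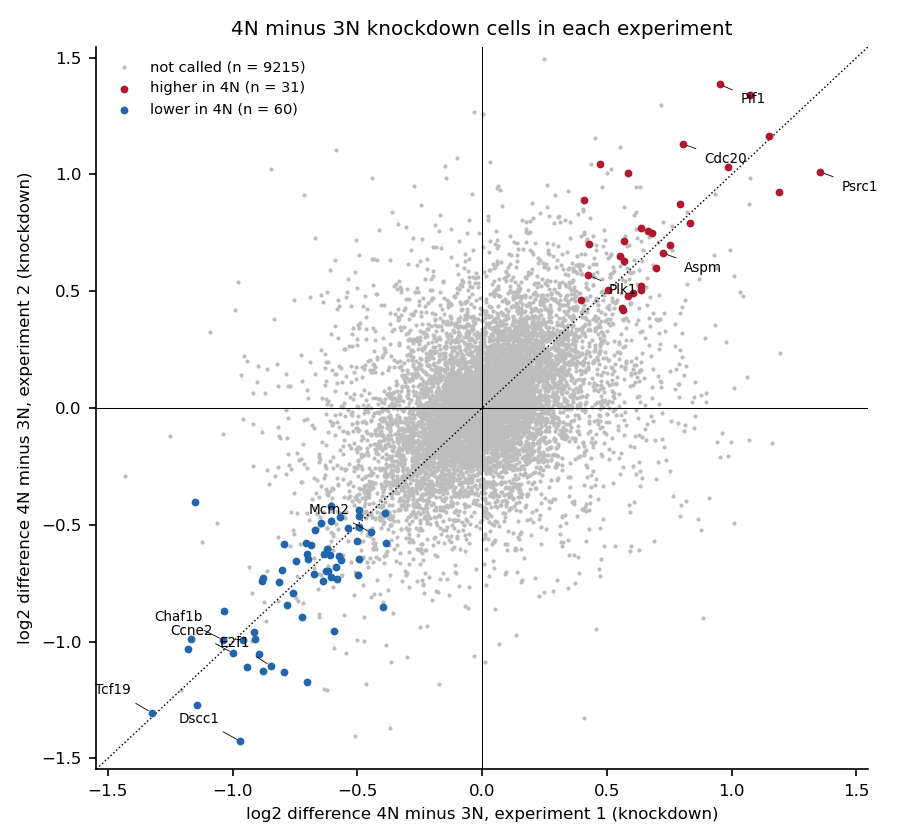
Log2 difference 4N minus 3N in knockdown cells in experiment 1 (x axis) against experiment 2 (y axis), 1 point for each of 9306 genes, with the line of equal values dotted. The 31 genes called higher lie at the upper right and the 60 called lower at the lower left, while the other genes scatter in all directions with a Pearson r of 0.42 over all genes.

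Genes of mitotic entry were among the clearest rises. Of 16 measured mitotic entry genes, 4 rose and 1 fell, with a median log2 fold change of 0.38, and leaving out 1 array gave 0 to 2 rises. Cdc25b, a phosphatase that switches on the mitotic kinase CDK1, read 9.07, 8.83 and 9.16 in 4N cells of experiments 1, 2 and 3, against 7.92 and 7.67 in 3N cells of experiments 1 and 2. Its 4N arrays were all above its 3N arrays, and it rose by 1.23 (SE 0.18, limma adjusted p = 0.00523). Cdc25c, a second phosphatase of CDK1, read 9.78, 9.59 and 9.85 in 4N cells, against 9.11 and 8.83 in 3N cells, a difference of 0.77 (SE 0.14). Aurka, the Aurora A kinase of the spindle pole, read 12.52, 12.56 and 12.51 in 4N cells, against 11.88 and 11.79 in 3N cells, a difference of 0.69 (SE 0.13). Both thus had a narrower gap between the fractions than Cdc25b. Plk1, the Polo-like kinase of mitotic entry, was high in both fractions, with 12.06, 12.04 and 12.003 in 4N cells, against 11.63 and 11.47 in 3N cells. It rose by 0.48 (SE 0.10, limma adjusted p = 0.0418), the narrowest of the 31 rises. The member that fell was Mybl2, which encodes the transcription factor B-Myb and is itself a gene of the G1/S wave. It read 8.21, 8.42 and 8.46 in 4N cells, against 9.35 and 9.69 in 3N cells, a difference of -1.16 (SE 0.20, limma adjusted p = 0.0134). Its other detected probes gave -0.46 each, and neither passed. With the mean over the probes of a gene, 0 members of this list fell. Cyclin F (Ccnf) had 0.65 and Cdk1, the kinase itself, 0.24, and neither passed the test.

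The spindle list held the most rises of the mitotic lists. Of 24 measured spindle motors and microtubule proteins 5 rose and none fell, with a median of 0.43, and 19 of 24 were higher in both experiments. With the experiment as a block 8 passed, under median centring 3, in the fit of the 8 knockdown arrays 2, and with 1 array left out 0 to 4 (1 without 3N replicate 1). Psrc1, a microtubule protein of the spindle, read 6.64, 6.55 and 6.25 in 4N cells, against 5.29 and 5.54 in 3N cells, where it was detected on neither array. It was at least 1.74-fold higher in 4N cells, taken against the detection limit of the 3N arrays, and its fitted difference was 1.07 (SE 0.16). Aspm, a spindle pole protein, read 10.44, 10.49 and 10.69 in 4N cells, against 9.71 and 9.83 in 3N cells, a difference of 0.77 (SE 0.11, limma adjusted p = 0.00489). The kinesin Kif18b, which works on microtubule ends, rose by 0.74 (SE 0.11), the midzone kinesin Kif23 by 0.60 (SE 0.11) and Dlgap5, a kinetochore fibre protein, by 0.50 (SE 0.10). Kif23 is also the 1 of 13 measured cytokinesis genes that rose, while a wider difference of 0.94 on that list did not pass. Nusap1, a spindle microtubule protein, had 0.71 and did not pass, and Kif15, a spindle kinesin, was on the negative side with -0.41, without passing.

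Genes of the kinetochore and centromere did not move as one. Of 29 measured, 2 rose and 1 fell, and their median was -0.07. Cenpa, the histone variant that marks the centromere, was among the brightest genes of the comparison. It read 14.03, 13.91 and 13.78 in 4N cells, against 13.05 and 12.87 in 3N cells, a rise of 0.95 (SE 0.12, limma adjusted p = 0.00166). Knstrn, a kinetochore protein that binds the spindle, rose by 0.55 (SE 0.12). Zwilch, a part of the checkpoint complex RZZ, fell by 0.57 (SE 0.11, limma adjusted p = 0.018). The other detected probes of Zwilch gave -0.32 each, and neither passed. With the experiment as a block 2 members of the list fell, but under median centring and in the fit of the 8 knockdown arrays 0 fell. Without 4N replicate 1 or 3 there were also 0 falls. Of 18 measured genes of the anaphase-promoting complex and mitotic ubiquitin 1 rose (2 with the experiment as a block), and it was Cdc20, the activator that the complex needs for anaphase. The widest difference on that list, 1.21, belonged to another member and did not pass. Cdc20 read 12.87, 12.92 and 12.91 in 4N cells, against 12.06 and 11.79 in 3N cells, a difference of 0.97 (SE 0.10, limma adjusted p = 0.000833), the lowest adjusted p of the comparison together with Cep89. The lists of sister cohesion and of condensins held 1 fall each and no rise, although the highest difference on the cohesion list was 0.80, which did not pass. Esco2, which acetylates cohesin as DNA is copied, fell by 0.70 (SE 0.12), and Ncapd3, a subunit of condensin II, fell by 0.75 (SE 0.10). Of 18 measured centrosome genes none passed (1 fell with the experiment as a block), and the largest value among them was that of Cep70, with 0.81 (limma adjusted p = 0.202).

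**Figure D2:**
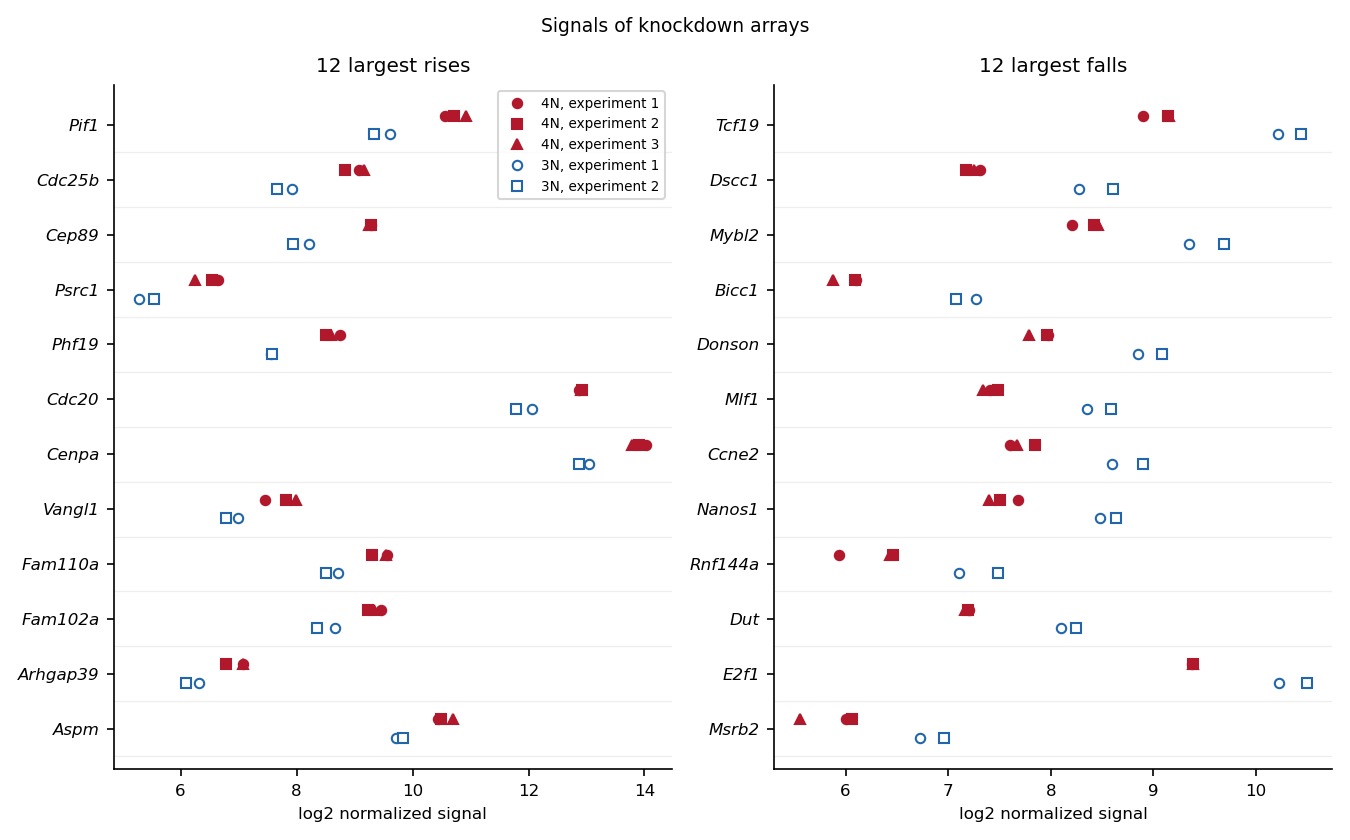
Log2 normalized signal of the 12 largest rises (left) and the 12 largest falls (right) on each knockdown array, with filled red symbols for 4N cells above open blue symbols for 3N cells and 1 symbol shape per experiment. In every gene shown the 3 arrays of 4N cells lie on one side of the 2 arrays of 3N cells, as in Pif1, with 10.56, 10.72 and 10.92 in 4N and 9.61 and 9.33 in 3N cells.

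The largest rise belonged to Pif1, a DNA helicase, with 10.56, 10.72 and 10.92 in 4N cells, against 9.61 and 9.33 in 3N cells, and a difference of 1.26 (SE 0.18, limma adjusted p = 0.00466). Cep89, a protein of the centriole's distal appendages, read 9.29, 9.28 and 9.24 in 4N cells, against 8.22 and 7.94 in 3N cells, and rose by 1.19 (SE 0.13). Phf19, a partner of the Polycomb complex PRC2, read 8.75, 8.50 and 8.59 in 4N cells, against 7.57 on both arrays of 3N cells, and rose by 1.04 (SE 0.13). These 3 genes were on none of the lists, and their gaps were as wide as that of Cdc25b or nearly so. The remaining genes among the 12 largest rises were Vangl1, a planar cell polarity protein, with 0.87, Fam110a with 0.85, Fam102a with 0.83 and Arhgap39 with 0.77. Sun2, which ties the nuclear envelope to the cytoskeleton, rose by 0.58 (SE 0.13) and stood near the threshold, with a limma adjusted p of 0.048.

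Canonical histone genes had higher signals in 4N than in 3N cells for many members, although histone genes are best known for S phase. Of 41 measured, 3 rose and none fell, with a median of 0.23, and with the experiment as a block 7 rose. Under median centring none rose, with each gene's own variance 1 did, and leaving out 1 array gave 0 to 3, with 0 without 4N replicate 1, 4N replicate 3 or either 3N array. All 3 encode histone H2B. H2bc9 read 11.21, 11.21 and 11.46 in 4N cells, against 10.64 and 10.49 in 3N cells, a difference of 0.72 (SE 0.15, limma adjusted p = 0.03). H2bc7 had 0.65 (SE 0.12) and H2bc15 had 0.64 (SE 0.13). The copies are nearly identical in sequence, so which of them was measured is uncertain. H3c7, a histone H3 gene, had the widest difference of the list, 1.13, and did not pass. The labelling kit copies RNA from poly(A) tails, which most S phase histone transcripts lack, and its part in these values was not tested.

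Promoter sequences are shown here for genes of both directions. The printed genes were picked by hand, so they do not stand for the shares of motifs given below. The planned rule, the largest rises and falls with a promoter, would have printed Cep89 and Mybl2 beside Cdc25b and Tcf19. Cep89 held CHR and CCAAT matches, and Mybl2 held no match to any of the motifs. RefSeq promoters (GRCm38.p6), each 250 bases before to 50 bases after the start of a gene, were found for 26 of the 31 genes that rose and 49 of the 60 that fell. Both strands were searched for TTTGAA and TTCGAA (CHR), for CCAAT, and for TTTCCCGC, TTTGGCGC, TTTCGCGC and TTTGCCGC (E2F), of which the E2F letters can overlap on opposite strands. Capitals mark each match, and adjoining or overlapping matches run together. Cdc25b (chr2:131186698-131186997, plus strand), Cdc20 (chr4:118437294-118437593, minus strand) and Plk1 (chr7:122159185-122159484, plus strand) are genes that rose. Tcf19 (chr17:35516775-35517074, minus strand), Mcm3 (chr1:20820263-20820562, minus strand) and Mcm6 (chr1:128359656-128359955, minus strand) are genes that fell.
Cdc25b: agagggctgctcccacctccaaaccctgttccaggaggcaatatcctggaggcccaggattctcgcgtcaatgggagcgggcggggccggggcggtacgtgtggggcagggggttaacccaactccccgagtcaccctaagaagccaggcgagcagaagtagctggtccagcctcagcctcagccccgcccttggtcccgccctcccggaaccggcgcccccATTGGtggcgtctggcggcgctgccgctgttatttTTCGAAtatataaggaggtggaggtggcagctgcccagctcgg
Cdc20: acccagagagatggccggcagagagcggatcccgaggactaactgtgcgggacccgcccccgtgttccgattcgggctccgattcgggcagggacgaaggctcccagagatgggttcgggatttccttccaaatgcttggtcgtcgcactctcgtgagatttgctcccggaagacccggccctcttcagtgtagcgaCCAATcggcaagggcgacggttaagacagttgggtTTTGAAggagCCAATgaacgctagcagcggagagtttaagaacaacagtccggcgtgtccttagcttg
Plk1: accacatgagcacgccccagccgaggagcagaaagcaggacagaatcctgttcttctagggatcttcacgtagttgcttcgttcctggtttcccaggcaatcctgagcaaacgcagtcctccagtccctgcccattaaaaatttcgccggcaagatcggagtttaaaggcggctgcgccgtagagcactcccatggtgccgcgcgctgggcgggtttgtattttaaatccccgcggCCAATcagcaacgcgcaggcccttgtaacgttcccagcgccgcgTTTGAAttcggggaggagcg
Tcf19: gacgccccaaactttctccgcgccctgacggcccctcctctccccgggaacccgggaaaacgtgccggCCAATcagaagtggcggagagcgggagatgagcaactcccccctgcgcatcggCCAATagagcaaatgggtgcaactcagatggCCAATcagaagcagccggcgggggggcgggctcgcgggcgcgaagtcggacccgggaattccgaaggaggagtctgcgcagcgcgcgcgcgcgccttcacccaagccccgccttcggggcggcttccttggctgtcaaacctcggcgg
Mcm3: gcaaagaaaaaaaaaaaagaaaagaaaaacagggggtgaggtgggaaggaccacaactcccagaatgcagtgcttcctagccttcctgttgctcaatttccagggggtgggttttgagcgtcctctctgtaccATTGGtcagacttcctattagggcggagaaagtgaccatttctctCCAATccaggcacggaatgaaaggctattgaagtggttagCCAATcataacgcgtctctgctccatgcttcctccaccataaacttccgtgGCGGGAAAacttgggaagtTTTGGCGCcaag
Mcm6: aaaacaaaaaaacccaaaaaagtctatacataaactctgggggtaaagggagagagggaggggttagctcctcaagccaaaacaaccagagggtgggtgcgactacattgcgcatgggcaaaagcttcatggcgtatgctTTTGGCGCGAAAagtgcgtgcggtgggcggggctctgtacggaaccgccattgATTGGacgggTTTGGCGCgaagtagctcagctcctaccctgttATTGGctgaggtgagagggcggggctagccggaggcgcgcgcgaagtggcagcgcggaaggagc
The Cdc25b window holds TTCGAA at base 8 after its start and CCAAT on the opposite strand at 28 before it, while Cdc20 holds TTTGAA at 18 before and Plk1 at 31 after the start. The Mcm3 window holds an E2F match on each strand, and that of Mcm6 holds TTTGGCGC in 2 places, 110 and 47 bases before the start, the first of them overlapped by TTTCGCGC on the opposite strand, printed here as GCGCGAAA. Tcf19, the largest fall, holds 3 CCAAT and no CHR or E2F match. A CHR match was present in 18 of the 26 promoters of genes that rose (69.2%) and in 7 of the 49 of genes that fell (14.3%), against 13.6% of 7610 tested genes with a promoter and 19.4% of all 27025 promoters. CCAAT was present in 76.9% of the rises and 46.9% of the falls, against 39.0% of the tested genes and 37.9% of all. An E2F match was present in 7.69% of the rises and 16.3% of the falls, against 4.09% of the tested genes and 2.32% of all. Among the rises with a CHR match were Aspm, Aurka, Cenpa, Kif18b, Kif23, Psrc1 and the 3 H2B genes. With the calls of the block fit the CHR share among rises was 42.0% (29 of 69 promoters). Without 4N replicate 3 it was 80.0% (8 of 10) and without 3N replicate 1 it was 62.5% (5 of 8), both alternatives chosen after the data were seen. A match is a stretch of letters, and binding was not measured.

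Many of the falls were genes of DNA replication. The licensing list, with the proteins that load and fire the replicative helicase, had 7 falls and no rise among 21 measured genes, with a median of -0.47, and 18 of 21 were lower in both experiments. Median centring and the fit of the 8 knockdown arrays gave 4 falls each, and leaving out 1 array gave 0 to 4 (1 without 3N replicate 1). All 6 subunits of the MCM helicase fell. Mcm6 read 10.90, 10.81 and 11.14 in 4N cells, against 11.82 and 11.79 in 3N cells, a difference of -0.85 (SE 0.13, limma adjusted p = 0.00656). Mcm2 was among the least changed, with 11.17, 11.15 and 11.16 in 4N cells, against 11.61 and 11.68 in 3N cells, a difference of -0.49 (SE 0.09, limma adjusted p = 0.0165). Mcm3 fell by 0.71 (SE 0.12), Mcm7 by 0.66 (SE 0.14), Mcm4 by 0.53 (SE 0.09) and Mcm5 by 0.47 (SE 0.10), so the 6 subunits, each by its brightest probe, lay within a span of 0.47 to 0.85. Other detected probes gave -0.97 and -1.18 for Mcm4, which did not pass, and for Mcm6 -0.77, which did not pass, and -1.02 and -1.23, which did. Cdc45, the helicase's partner at the fork, read 9.19, 9.26 and 9.48 in 4N cells, against 10.10 and 10.22 in 3N cells, and fell by 0.85 (SE 0.13). The licensing inhibitor geminin (Gmnn) had -0.70 and the loader Cdc6 -0.57, and neither passed. Donson, a protein of helicase assembly that was on no list, read 7.98, 7.96 and 7.79 in 4N cells, against 8.85 and 9.09 in 3N cells, and fell by 1.06 (SE 0.14, limma adjusted p = 0.00209).

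At the replication fork 8 of 27 measured genes fell and none rose, with a median of -0.49, and 25 of 27 were lower in both experiments. With the experiment as a block 14 fell, in the fit of the 8 knockdown arrays 4, and with 1 array left out 0 to 5 (1 without 3N replicate 1). Dscc1, a subunit of an alternative clamp loader, read 7.31, 7.18 and 7.25 in 4N cells, against 8.28 and 8.60 in 3N cells, a difference of -1.19 (SE 0.21, limma adjusted p = 0.0142). Its partner in that loader, Chtf18, fell by 0.64 (SE 0.14). Lig1, the ligase that joins Okazaki fragments, read 10.47, 10.65 and 10.65 in 4N cells, against 11.51 and 11.52 in 3N cells, a difference of -0.92 (SE 0.12, limma adjusted p = 0.00285). Fen1, the nuclease that trims the same fragments, fell by 0.69 (SE 0.11), so both enzymes of fragment joining were lower. Among the other members that passed were the primase subunit Prim2, with a fall of 0.64, the catalytic subunit of polymerase delta, Pold1, with one of 0.63, Rpa1, which coats single-stranded DNA, with one of 0.61, and Timeless, which steadies the fork, with one of 0.55. The sliding clamp Pcna had -0.58 and did not pass, while Pclaf, a protein that binds the clamp, fell by 0.75 (SE 0.14).

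Few genes of nucleotide supply and chromatin assembly passed, each of them lower in 4N cells. Of 21 measured genes of nucleotide supply 2 fell (5 with the experiment as a block), the median was -0.22 and 19 of 21 were lower in both experiments. Dut, which keeps uracil out of DNA, read 7.21, 7.19 and 7.17 in 4N cells, against 8.10 and 8.25 in 3N cells, a difference of -0.98 (SE 0.16, limma adjusted p = 0.00768). Rrm2, the regulated subunit of ribonucleotide reductase, fell by 0.76 (SE 0.12). A probe annotated to the pseudogene Tyms-ps, a near copy of the thymidylate synthase gene Tyms, fell by 0.60 (SE 0.13), and the 2 cannot be told apart with certainty. Of 14 measured chromatin assembly genes 2 fell, with a median of -0.40. Chaf1b, a subunit of the chromatin assembly factor that puts histones onto new DNA, read 9.73, 9.91 and 10.12 in 4N cells, against 10.77 and 10.91 in 3N cells, a difference of -0.92 (SE 0.12). Hat1, which acetylates new histone H4, fell by 0.65 (SE 0.11, limma adjusted p = 0.0122).

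The genes of the G1/S transition fell in 2 of 21 measured cases, with a median of -0.13. Ccne2, the cyclin E2 gene, read 7.60, 7.85 and 7.67 in 4N cells, against 8.60 and 8.90 in 3N cells, a difference of -1.04 (SE 0.12, limma adjusted p = 0.00166). E2f1, a transcription factor of S phase entry, read 9.38, 9.39 and 9.39 in 4N cells, against 10.23 and 10.49 in 3N cells, a difference of -0.98 (SE 0.14, limma adjusted p = 0.00466). Its 4N arrays were almost equal, and the 3N arrays were 0.85 and 1.10 higher in their own experiments. Tcf19, a nuclear protein that was on no list, had the largest fall of the comparison. It read 8.90, 9.14 and 9.16 in 4N cells, against 10.22 and 10.44 in 3N cells, a difference of -1.27 (SE 0.16, limma adjusted p = 0.00166).

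Of 43 measured genes of DNA repair and the S phase checkpoint 3 fell and none rose, with a median of -0.26, and 35 of 43 were lower in both experiments. The blocked fit gave 6 falls, median centring and the fit of the 8 knockdown arrays 1 each, and leaving out 1 array gave 0 to 2 (0 without 3N replicate 1). Brip1, a helicase of DNA crosslink repair, fell by 0.84 (SE 0.12, limma adjusted p = 0.00403), Msh6, a mismatch repair protein, by 0.66 (SE 0.12) and Mre11a, a nuclease of double-strand break repair, by 0.51 (SE 0.10). Fam111a, a protease that acts at stalled forks, fell by 0.79 (SE 0.12), Fignl1, a protein of homologous recombination, by 0.62 (SE 0.11) and Zranb3, a helicase that remodels forks, by 0.49 (SE 0.11), and these were on no list. The remaining genes among the 12 largest falls were also on no list. Bicc1, an RNA-binding protein, fell by 1.15 (SE 0.21), Mlf1 by 1.06 (SE 0.19) and Nanos1, a translational repressor, by 1.03 (SE 0.12). Rnf144a, a ubiquitin ligase, fell by 1.02 (SE 0.20) and Msrb2, a methionine sulfoxide reductase of mitochondria, by 0.97 (SE 0.20). Other detected probes gave -0.42 for Mlf1 and -0.27 for Msrb2, and neither passed. Nanos1 read 7.68, 7.51 and 7.39 in 4N cells, against 8.48 and 8.64 in 3N cells. Megf9 and Gna15 were called lower but were detected on no 4N array, and were at least 1.42-fold and 1.08-fold lower there against the detection limit.

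**Figure D3:**
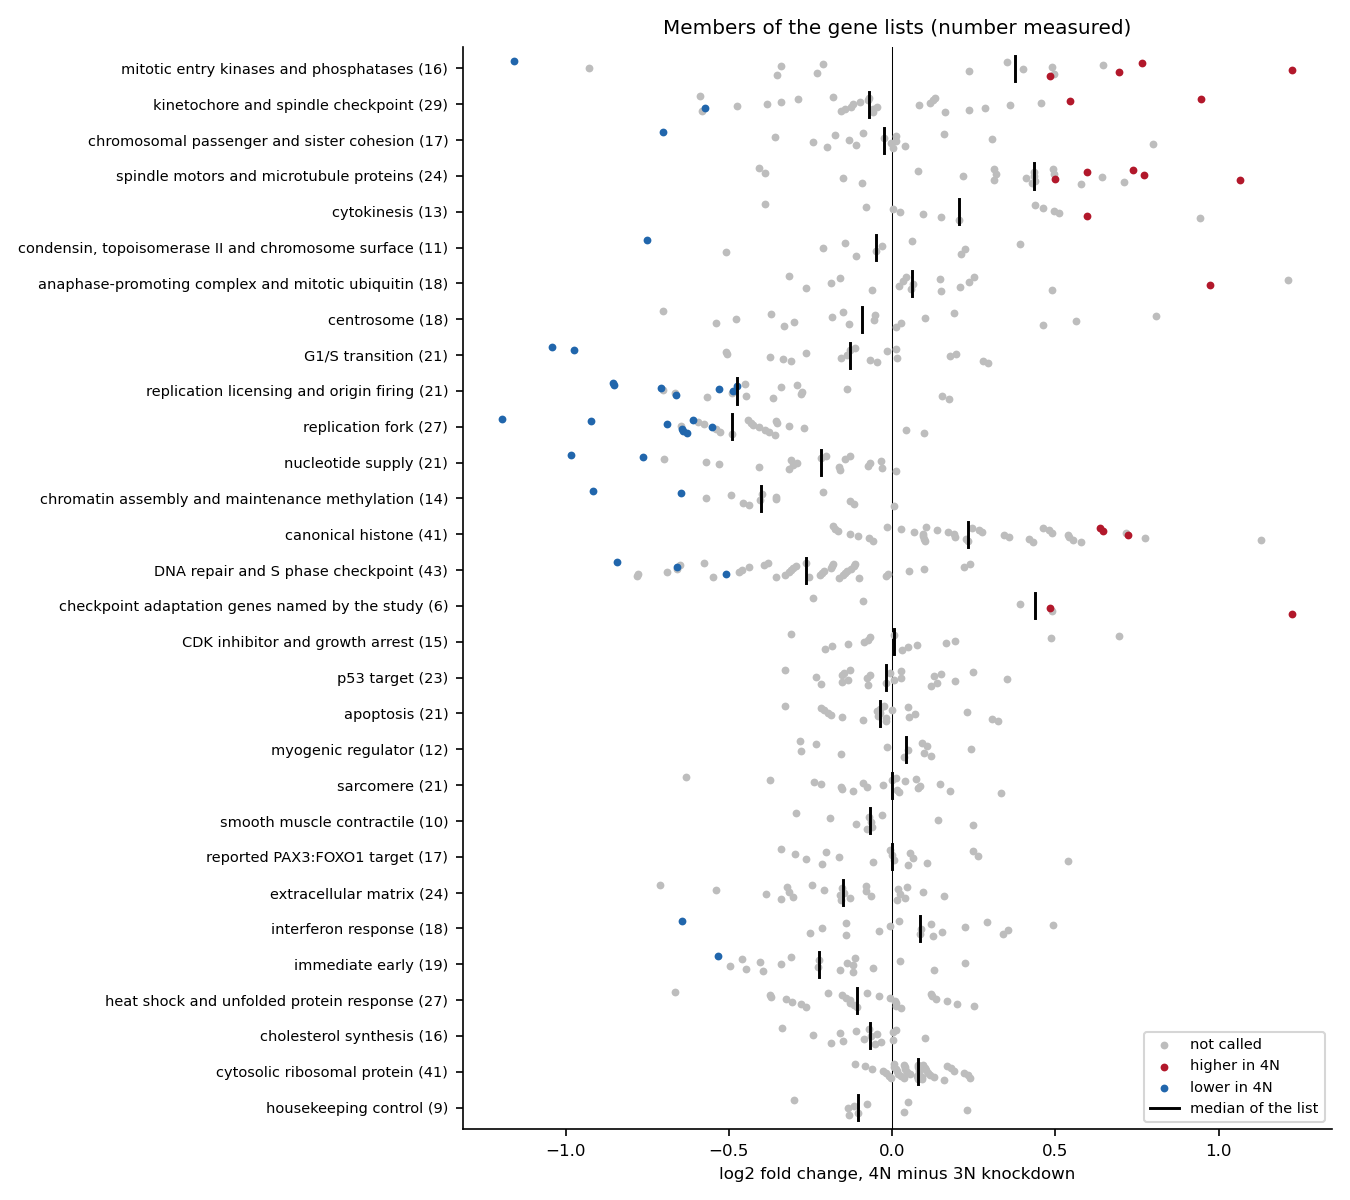
Log2 fold change 4N minus 3N in knockdown cells of every measured member of each gene list, with the number measured in brackets, a black bar at the list's median, red points for members called higher and blue points for members called lower. The licensing and fork lists are centred at -0.47 and -0.49 and the spindle list at 0.43, while most lists below the adaptation genes have no coloured point.

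The list of adaptation genes holds 6 that the study names in its text and supplement. The study's Discussion also names AURKB and CCCNB1 (as printed there), which are not on this list. At least Cdc25b, Plk1, H2ax and Birc5 were picked by the study on these same samples, so their direction is not independent evidence. Of the 6, Cdc25b and Plk1 rose, and the median was 0.44. With the experiment as a block H2ax passed as well (limma adjusted p = 0.0496), and under median centring 1 of the 6 passed. On the authors' processed values 3 of the 6 passed, as did 3 without background correction, where Bora was among them. Bora, an activator of Aurora A, read 9.88, 10.11 and 9.95 in 4N cells, against 9.48 and 9.50 in 3N cells, a difference of 0.49 (95% interval 0.20 to 0.78, limma adjusted p = 0.135). H2ax, the histone variant phosphorylated at DNA breaks, had a difference of 0.39 (95% interval 0.13 to 0.65, limma adjusted p = 0.193). Birc5, which encodes survivin of the chromosomal passenger complex, read 11.62, 11.69 and 11.64 in 4N cells, against 11.81 and 11.67 in 3N cells, and its values overlapped. Its difference was -0.09 (95% interval -0.30 to 0.12), and that of Haspin, the kinase that recruits this complex, was -0.24 (95% interval -0.52 to 0.04). The unadjusted intervals of Bora and H2ax lay above 0, and those of Birc5 and Haspin included 0.

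Outside the cell cycle few list members passed. Of 18 measured interferon genes 1 fell, the chemokine Cxcl10, which read 6.64, 6.28 and 6.40 in 4N cells, against 7.04 and 7.13 in 3N cells, a difference of -0.64 (SE 0.12, limma adjusted p = 0.0209). Of 19 measured immediate early genes 1 fell, the small Maf factor Maff, by 0.53 (SE 0.11, limma adjusted p = 0.03), and the median of the list was -0.23. The calls of Cxcl10 and Maff depended on the processing. Without background correction, on the authors' processed values and in the fit of the 8 knockdown arrays, 0 members of either list fell. No member passed among 12 myogenic regulators, 21 sarcomere genes, 17 reported PAX3:FOXO1 targets, 23 p53 targets, 21 apoptosis genes, 15 CDK inhibitors and growth arrest genes, 24 extracellular matrix genes or 41 ribosomal protein genes, with list medians between -0.15 and 0.08. With the experiment as a block 1 sarcomere gene, Ankrd1, and 2 extracellular matrix genes, Ccn2 and Tnc, passed as lower, at limma adjusted p of 0.0214, 0.0464 and 0.026. The largest differences on the first 3 of these lists were those of Id1, an inhibitor of muscle factors, with -0.28, Ankrd1, a sarcomere protein, with -0.63 (95% interval -1.29 to 0.03), and Jarid2, a Polycomb partner, with 0.54 (95% interval -0.21 to 1.29). None of the measured markers of immune, erythroid, fibroblast, epithelial and neural cells passed.

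Cells given control siRNA were sorted in the same experiments, and their 4N and 3N arrays share no array with the knockdown cells. Both contrasts use the same estimate of the spread of a gene, so a gene of small spread is favoured in both tests. All 31 rises and all 60 falls of knockdown cells had the same sign in control cells, against 68.5% of all genes. Of the rises 15 were also called higher in control cells, where 0.344% of all genes were, and of the falls 24 were also called lower, where 0.419% were. The median log2 fold change of the rises was 0.72 in knockdown and 0.60 in control cells, and that of the falls was -0.70 in knockdown and -0.52 in control cells. Genes picked for their size in knockdown cells tend to be larger there, so these medians are a description. Cdc20 had 0.97 in knockdown and 0.87 in control cells, and Plk1 0.48 in knockdown and 0.45 in control cells. Mcm6 had -0.85 in knockdown and -0.98 in control cells, and Chaf1b -0.92 in knockdown and -1.01 in control cells. For each of these 4 genes the 95% interval of the difference between treatments included 0.

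The test of the difference between the treatments, fitted for each gene as the knockdown 4N minus 3N change less that of control cells, called 0 of 9306 genes (0%), with a lowest limma adjusted p of 1.00. At an unadjusted p under 0.05 there were 185 genes (1.99%). The blocked fit made 0 calls too, with 324 genes below that unadjusted level. The median 95% interval of this difference reached 0.47 to either side before adjustment, and a gene needs a larger difference than that to pass over 9306 genes. Ccne2 had -1.04 in knockdown and -0.34 in control cells, a difference of -0.70 (95% interval -1.07 to -0.33), with an unadjusted p of 0.0012 in limma that did not pass adjustment. Pif1 had 1.26 in knockdown and 0.58 in control cells, and Cenpa 0.95 in knockdown and 0.53 in control cells, with unadjusted p of 0.0188 and 0.0228 in limma. Of the 91 genes the 95% interval of the difference included 0 for 80.

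**Figure D4:**
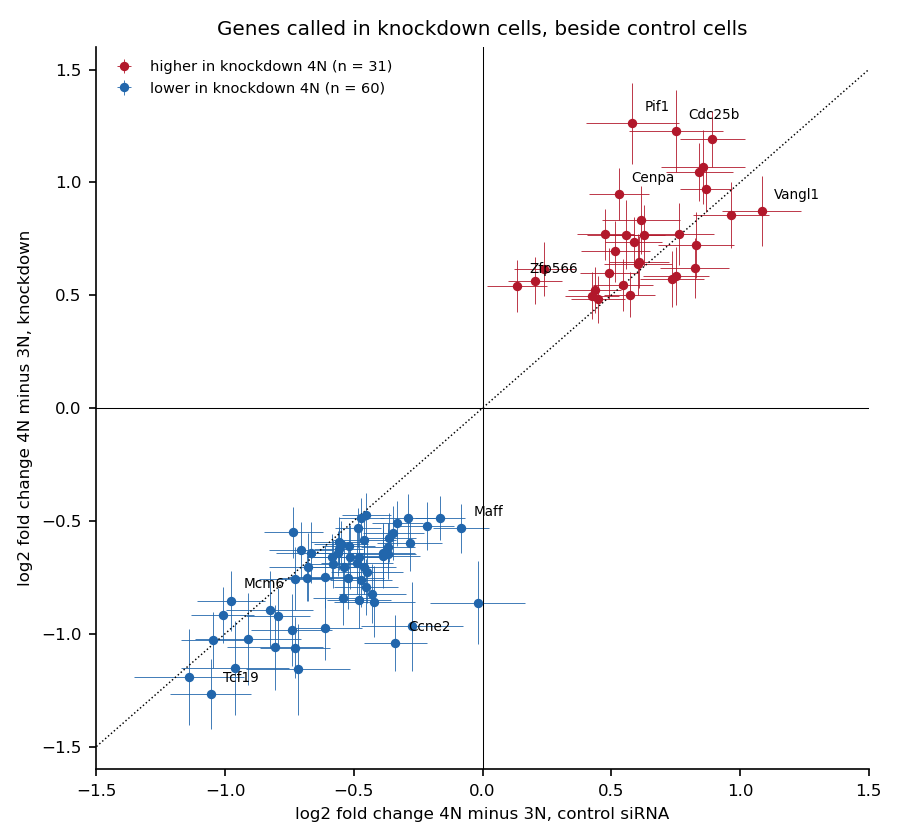
Log2 fold change 4N minus 3N of the 91 called genes in knockdown cells (y axis) against control siRNA cells (x axis), with bars of 1 standard error from the fit and the line of equal values dotted. All 31 rises lie to the right of 0 and all 60 falls to the left of it, with Ccne2 farther from the line (-1.04 in knockdown and -0.34 in control cells) than Mcm6 (-0.85 in knockdown and -0.98 in control cells).

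Levels in 2N (G0/G1) knockdown cells place the same genes along the cycle. The 3N arrays enter both steps, so the pattern is given as levels with no test. Aurka had means of 9.67 in 2N, 11.83 in 3N and 12.53 in 4N cells, and Plk1 of 9.82 in 2N, 11.55 in 3N and 12.03 in 4N cells, so that most of the climb of both lay before the 4N fraction. Of the 12 mitotic genes called higher, 11 read lower in 2N than in 3N cells, by up to 2.17 on the log2 scale, but Psrc1 among them was detected on no 2N or 3N array, so that its step is between background readings. Cenpa was the one that was not, with 13.01 in 2N and 12.96 in 3N cells. Each of the 3 H2B genes was higher in 2N than in 3N cells, by 0.78 to 0.83, and thus lowest in the 3N fraction. Of 21 replication and G1/S genes called lower, 17 had a lower mean in 2N than in 3N cells. These genes were picked as lower in 4N than in 3N cells, and among all 60 falls 53 had their highest mean in 3N. The step was small for some, with 2N minus 3N of -0.02 for Chaf1b, -0.03 for Mcm2 and -0.14 for Timeless. Ccne2 was one of 4 with a higher mean in 2N, at 9.41 in 2N, 8.75 in 3N and 7.71 in 4N cells. E2f1 had 10.51 in 2N, 10.36 in 3N and 9.39 in 4N cells. Its step between 2N and 3N is within the spread of the arrays, and those of Chaf1b, Mcm2 and Timeless were no larger. Dscc1 had 7.72 in 2N, 8.44 in 3N and 7.25 in 4N cells.

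**Figure D5:**
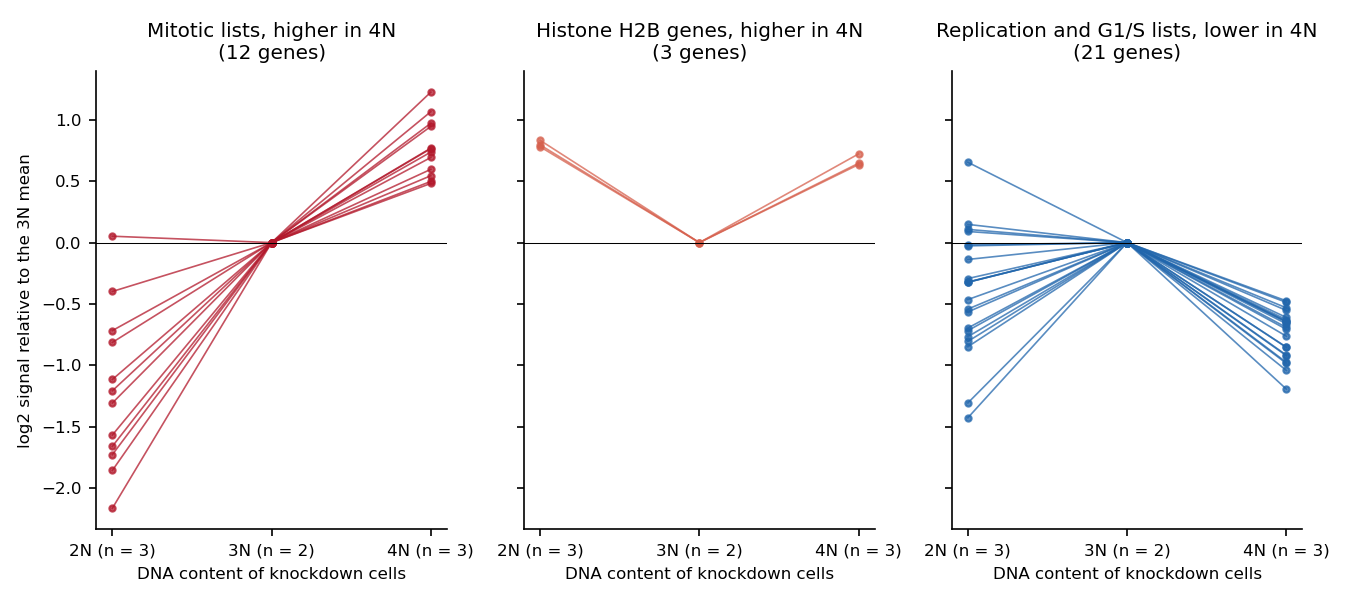
Mean log2 signal of called genes in knockdown cells of 2N, 3N and 4N DNA content, relative to the mean of 3N cells, 1 line per gene in 3 panels. The 12 mitotic genes read higher from fraction to fraction, apart from Cenpa between 2N and 3N, where Psrc1 was not detected in either fraction, and the 3 H2B genes are lowest in 3N. Of the 21 replication and G1/S genes, picked as lower in 4N than in 3N, 17 have their highest mean in 3N. Some of these have nearly equal 2N and 3N means, with 2N levels of -0.02 for Chaf1b and -0.03 for Mcm2.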

How the data were processed

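RNA of 16 samples of an aRMS tumor culture, control or knockdown, of 2N, 3N and 4N DNA content, had been hybridised to 1-colour Illumina MouseRef-8 v2 arrays, 1 array per sample. The deposited signals were GenomeStudio means per probe, an intensity that the authors had not normalized, and beside each stood a detection value, a fraction equal to 1 minus the detection p. The authors' processed values are an intensity too, and lay within 0.0327 of plain quantile normalization of the signals on the log2 scale. The culture used, the hours after transfection, the slides and the genome build were not given in the sources used here. Signals were corrected with normexp from the detection values (offset 16), quantile normalized over all arrays and taken to log2 with limma 3.58.1 in R 4.3.3. Probes detected at p under 0.05 on at least 3 arrays were kept (13882 of 25697), and the brightest probe stood for a gene. The platform annotation names a gene for 23978 probes and none for 1719, and 23962 matched RefSeq by Entrez ID. One linear model with a mean for each of the 6 groups (10 residual and 3.9 prior degrees of freedom) gave knockdown 4N minus 3N, control 4N minus 3N and their difference, with Benjamini-Hochberg adjustment over 9306 genes and a threshold of 0.05. Errors are standard errors (SE) of this model.

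The comparison, the gene lists and the rule for named genes were chosen with earlier results of these data known. The rule takes the 12 largest rises and 12 largest falls past the threshold that agree in experiments 1 and 2 and had a detected probe on all arrays of the group that was higher, up to 4 members per list (the widest where none passed), the adaptation genes, Foxo1, and the 3 genes each way with the smallest p in the difference. Further called or listed genes were named after their values were seen. The experiment number in the labels pairs arrays: deviations from group means correlated at 0.348 and 0.283 between knockdown 4N and 3N arrays of experiments 1 and 2, and at 0.100 or more for the other pairs examined. Where a group was detected on no array, a lower bound against the detection limit of its arrays is given. Scripts were tested on simulated data. Alternatives changed the background correction, normalization, detection filter, probe choice, variance model, block and arrays used.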

Additional observations from a re-analysis of the deposited data

Results flagged for a closer look

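Among the genes named for the smallest unadjusted p in the difference between treatments, 5 had opposite directions of 4N against 3N with knockdown and control siRNA. This was so in both experiments 1 and 2. Over all 9306 genes tested, 68.5% had the same sign in knockdown and control cells, so opposite signs alone were not unusual. All 5 were thus picked by the difference between knockdown and control, and none passed the test of that difference after adjustment (limma adjusted p of 1.00 in all). Epha4, an ephrin receptor, had 0.61 in knockdown and -0.56 in control cells, a difference of 1.17 (95% interval 0.53 to 1.81). Stk32b, a kinase, had 0.67 in knockdown and -0.28 in control cells, a difference of 0.95 (95% interval 0.43 to 1.47), and Tspan4, a tetraspanin, had 0.52 in knockdown and -0.42 in control cells, a difference of 0.94 (95% interval 0.46 to 1.43). In the other direction Slc31a2, a copper transporter, had -0.40 in knockdown and 0.50 in control cells, a difference of -0.90 (95% interval -1.37 to -0.42). Sync, a muscle intermediate filament protein, had -0.13 in knockdown and 0.63 in control cells, a difference of -0.76 (95% interval -1.16 to -0.36). All 5 were dim, between 5.37 and 7.07 on the log2 scale on the knockdown arrays, and the part of low signal was not tested.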

How the results depend on the processing

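Of 91 genes called in knockdown 4N against 3N cells, 31 were higher and 60 lower. Median centring in place of quantile normalization gave 58 (18 higher, 40 lower). With the experiment as a replicate block, 191 were called (83 higher, 108 lower), and the call of 0 genes for the difference between knockdown and control did not change. A fit of the 8 knockdown arrays gave 41 (12 higher, 29 lower). The 5 arrays fitted alone, with 3 residual degrees of freedom, gave 0, also when normalized alone, as did the 4 arrays of experiments 1 and 2 with the replicate block, and in each of these fits all 91 had an unadjusted p under 0.05 (limma). Genes called higher numbered 49 without background correction, 49 on the authors' processed values and 47 at a detection p under 0.01. Leaving out 1 array at a time gave 0 to 56 calls (0 to 17 higher, 0 to 39 lower), with 0 without knockdown 3N replicate 2, 19 without 3N replicate 1, and 40, 56 and 43 without 4N replicates 1, 2 and 3, where fewer arrays enter. A lone 3N array is assumed to vary like the other groups. The other alternatives stayed within 1.5 times. The difference between treatments gave 0 calls in every alternative run, with 116 to 495 genes at an unadjusted p under 0.05. Of the called genes, none of the 51 named turned its direction. The signs of the remaining called genes were compared only without 3N replicate 2, where all 91 called genes kept theirs. Of named genes that were not called, Id1 (-0.28) had 0.14 and Sync (-0.13) had 0.00068 without 3N replicate 1, and Lyz1 (0.19) also changed sign. Of 51 named genes past the threshold, 34 passed in each setting that fits all 16 arrays, and none passed in every fit that leaves out an array. The 2 arrays of 3N cells limit the precision throughout.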
